A study of Homo sapiens with 19 samples.

Results

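The genes described here encode the machinery that brings secretory and membrane proteins into the endoplasmic reticulum (ER) and attaches N-linked glycans to them. They were taken as a fixed list by gene name, with no rule on a measured value. The list was chosen with earlier results of these data known. All 34 were found by Ensembl gene ID among the 19942 protein-coding gene rows of the deposited tables. The list holds 6 protein subunits of the signal recognition particle (SRP), 2 of the SRP receptor, 4 Sec61 genes, 3 genes for SEC62, SEC63 and TRAM1, 4 of the translocon-associated protein (TRAP) complex, 5 of signal peptidase and 10 of oligosaccharyltransferase (OST).

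SRP binds a signal peptide as it leaves the ribosome and docks the ribosome at the ER through its receptor, and the nascent chain then enters the Sec61 channel. SEC62 and SEC63 assist chains that enter after synthesis, TRAM1 and TRAP assist at the channel, signal peptidase removes the signal peptide, and OST transfers a preassembled glycan to asparagine residues. Most subunits of these complexes are themselves membrane proteins of the ER. Stress granules (SGs) are cytoplasmic assemblies of mRNAs and proteins that form when translation initiation stops, and G3BP1 and G3BP2 are RNA-binding proteins at their core.

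All samples came from SH-SY5Y, an established human neuroblastoma cell line. RNA-seq was made from cells transfected with a control siRNA (siCtrl) or with an siRNA against G3BP1 (siG3BP1) or G3BP2 (siG3BP2). It was also made from the cleared lysate (Total) and the SG cores (SG) of cells treated with sodium arsenite (AS). The SG cores were pelleted from that lysate and immunopurified with an antibody to G3BP1. These libraries are called poly-A here. The published methods state poly-A libraries for the knockdown cells and name no selection for Total and SG. rRNA-depleted RNA-seq was made from untreated and AS-treated cells, and eCLIP, which sequences RNA crosslinked to an immunoprecipitated protein, was made for G3BP1 and G3BP2 in untreated (Ctrl) and AS-treated (AS) cells. Each RNA-seq condition had 1 library and each eCLIP group had 2, so only the eCLIP comparisons could be tested against the spread between libraries. The label of the rRNA-depleted AS sample gives 500 μM AS for 1 h, whereas the treatment protocol shared by the other samples gives 50 mM for 1 h and is attached also to the siRNA and Ctrl samples. The published methods describe a general AS treatment of 500 μM for 1 h. Nothing in the labels says whether duplicate eCLIP libraries came from separate cultures, so p-values measure only the spread between these libraries.

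The levels of the targeted genes went with the labels. G3BP1 was at 18.7 TPM (transcript abundance scaled to a fixed sum per library) in siCtrl and 6.0 TPM in siG3BP1, and G3BP2 was at 38.1 TPM in siCtrl and 11.4 TPM in siG3BP2. Of 10 neuroblastoma markers, 9 were above 1 TPM in each of the 5 poly-A libraries, and TH, which encodes tyrosine hydroxylase, was below 1 TPM in all of them. None of 3 hepatocyte, 3 blood and 3 epithelial markers reached 1 TPM. All 5 fibroblast markers were above 1 TPM, with a summed level of 42.6 to 82.5 TPM that was lowest in siCtrl and highest in SG, and their part in the results was not tested. In such bulk libraries, fewer cells of a type and less RNA per cell cannot be told apart.

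All 34 genes were above 1 TPM in each of the 5 poly-A libraries, but their levels were far apart. In siCtrl the lowest was SSR1 (TRAP alpha) at 5.93 TPM, the median was 65.5 TPM and the highest was OST4, the smallest OST subunit, at 1037 TPM. The median of all genes above 1 TPM in that library was 14.0 TPM. SSR2 (TRAP beta), at 1003 TPM, stood beside SSR3 (TRAP gamma) at 18.7 TPM, so subunits of the same complex were not at matching mRNA levels. The pore gene SEC61A1 was at 142 TPM and its paralog SEC61A2 at 20.7 TPM. The catalytic OST subunits STT3A and STT3B, which serve nascent and completed chains, were at 35.9 and 17.3 TPM, and the signal peptidase catalytic subunits SEC11A and SEC11C at 130 and 43.8 TPM. Summed, the 34 genes held 5449 TPM in siCtrl, 5491 in siG3BP1, 5519 in siG3BP2 and 6198 in Total, but 2345 in SG. This is 0.993% of the Total table and 0.319% of the SG table.

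To ask which of these mRNAs were recovered with SG cores, SG was compared with Total. A gene was called SG-enriched when its fold of (TPM + 1) was above 2 and its SG level above 1 TPM, and SG-depleted when the fold was below 0.5 and its Total level above 1 TPM. Of the 34 genes, 8 were SG-enriched, 14 were SG-depleted and 12 were neither. Over all 13560 genes above 1 TPM, 62.9% were SG-enriched and 9.45% were SG-depleted. The median log2 fold of the 34 genes was -0.27 against 1.51 for all genes, and 29 of the 34 lay below that all-gene median. TPM is a share of each library, so the direction depends on what the shares are set against. With the median ratio of all genes set to 1, which shifts each SG value by -1.47 on the log2 scale, 2 of the genes were SG-enriched and 20 SG-depleted, against 35.3% and 25.6% of all genes. There was 1 library of each kind, so no test was possible.

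**Figure D1:**
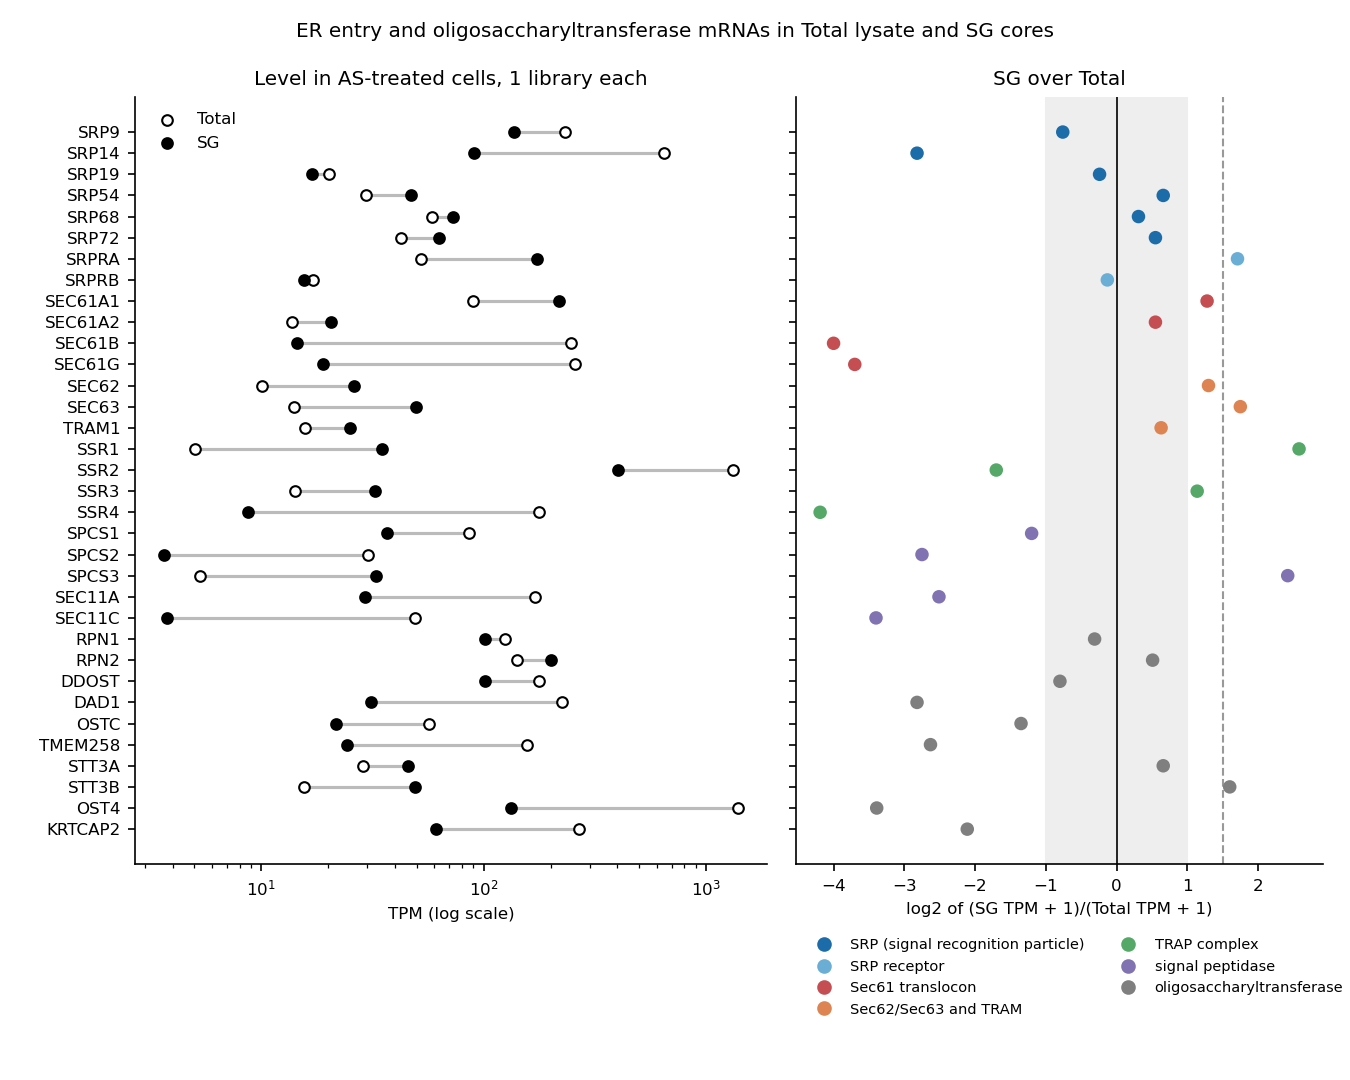
TPM of the 34 genes in the Total and SG libraries (left, log scale, 1 library each) and log2 of (SG TPM + 1)/(Total TPM + 1) (right, coloured by complex). The shaded band marks folds between 0.5 and 2, the solid line no difference and the dashed line the median of all genes at 1.51. Points of the same colour lie on both sides of the band for Sec61, TRAP, signal peptidase and OST.

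The lowest SG to Total folds belonged to small subunits of 4 complexes. SSR4 (TRAP delta) had 177 TPM in the Total library and 8.75 TPM in SG, a log2 fold of -4.19. SEC61B, the beta subunit of the channel, had 247 and 14.5 TPM, a log2 fold of -4.00. SEC61G, the gamma subunit, had 258 and 18.9 TPM, a log2 fold of -3.70. These 3 abundant mRNAs were 13.7 to 20.2 times lower in SG than in Total as TPM. SEC11C, a catalytic subunit of signal peptidase, followed with 49.3 and 3.75 TPM, a log2 fold of -3.40. OST4, the most abundant of the 34 genes in Total at 1400 TPM, had 133 TPM in SG and a log2 fold of -3.39. SSR4 and OST4 are overlapped on the opposite strand by IDH3G and AGBL5, and reads of such pairs cannot be told apart without strand. Every SG-enriched gene but STT3B is also overlapped on the opposite strand by an annotated gene. SSR1 is overlapped on its own strand as well, by CAGE1 among others.

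Subunits of the same complex fell on both sides. The highest SG to Total fold was that of SSR1, with 5.02 TPM in the Total library and 34.9 TPM in SG and a log2 fold of 2.58. SSR1 and SSR4 are subunits of the same TRAP complex, and the range of log2 folds within TRAP was 6.76. Of the other TRAP genes, SSR3 was SG-enriched with 14.2 and 32.6 TPM, and SSR2 was SG-depleted with 1317 and 404 TPM. Signal peptidase held SPCS3, an accessory subunit required for its activity, at 5.29 TPM in the Total library and 32.7 TPM in SG, a log2 fold of 2.42. Its other 4 subunits were SG-depleted. SPCS2 went from 30.1 to 3.64 TPM, a log2 fold of -2.75, and SEC11A from 171 to 29.2 TPM, a log2 fold of -2.51. SPCS1 was nearer the threshold, at 85.9 TPM in the Total library and 36.8 TPM in SG.

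In the Sec61 channel, the pore gene SEC61A1 was SG-enriched with 89.9 TPM in the Total library and 219 TPM in SG, a log2 fold of 1.28 that turned to -0.19 with the all-gene median set to 1. Its paralog SEC61A2 had 13.7 and 20.6 TPM, a log2 fold of 0.55, and was in neither class. The pore and its small partner subunits thus lay up to 5.27 apart on the log2 scale. SEC63, which carries the J domain that recruits the chaperone BiP, had 14.1 TPM in the Total library and 49.8 TPM in SG, a log2 fold of 1.75. SEC62 had 10.1 and 26.2 TPM, a log2 fold of 1.3 that turned to -0.09 with the all-gene median set to 1. TRAM1 had 15.8 and 25.1 TPM and was in neither class. For SSR3, the log2 fold of 1.14 likewise turned to -0.26.

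Among the 10 OST genes, STT3B was the only SG-enriched one, with 15.5 TPM in the Total library and 49.0 TPM in SG and a log2 fold of 1.60. Its counterpart STT3A had 28.6 and 45.7 TPM, a log2 fold of 0.66, short of the threshold. The SG-depleted OST genes were the small subunits OST4, DAD1, TMEM258, KRTCAP2 and OSTC. DAD1 had 226 TPM in the Total library and 31.0 TPM in SG, TMEM258 156 and 24.3 TPM, KRTCAP2 268 and 61.3 TPM, and OSTC 56.5 and 21.6 TPM. The larger subunits RPN1, RPN2 and DDOST lay between -0.80 and 0.51 on the log2 scale and were in neither class.

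The SRP proteins were less spread. SRP14, which with SRP9 binds the Alu domain of the SRP RNA, was the only SG-depleted one, with 649 TPM in the Total library and 90.7 TPM in SG and a log2 fold of -2.82. Its partner SRP9 had 233 and 137 TPM, a log2 fold of -0.76. The remaining SRP subunits, SRP19, SRP54, SRP68 and SRP72, were in neither class, with log2 folds of -0.24 to 0.66. The receptor GTPase SRPRA was SG-enriched with 52.2 TPM in the Total library and 173 TPM in SG, a log2 fold of 1.71, while the membrane anchor SRPRB had 17.0 and 15.5 TPM. Of all 34 genes, SSR1 and SPCS3 stayed SG-enriched with the all-gene median set to 1, at log2 folds of 1.17 and 1.02.

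The SG-enriched genes had longer reference transcripts than the SG-depleted genes, with overlap. The MANE Select transcripts, the reference transcript chosen for each gene, were 2986 to 9661 nt long in the 8 SG-enriched genes and 425 to 3786 nt in the 14 SG-depleted genes. The 3′ UTRs had a median of 3782.5 nt in the SG-enriched and 286 nt in the SG-depleted genes. Across the 34 genes, Spearman's rho between log2 fold and transcript length was 0.879, and across 13548 genes it was 0.696, given as descriptions because genes of the same libraries are not independent replicates. For coding length the values were 0.704 and 0.541, for 3′ UTR length 0.762 and 0.509, and for GC content -0.339 and -0.220. The level in Total also went with the fold, at -0.774 over the 34 genes and -0.569 over all genes. Total is the denominator of the fold, so part of that relation is built in, and its size was not tested. Length and abundance therefore cannot be told apart here.

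Within lengths the 34 genes still sat low. All 8 with transcripts under 1000 nt were SG-depleted, as were 53.0% of all genes of that length, and their median log2 fold was -3.40 against -1.15. Between 1000 and 2000 nt, 4 of 6 were SG-depleted against 22.4% of all genes. Between 2000 and 3000 nt, 1 of 9 was SG-enriched against 48.4% of all genes, and above 3000 nt 7 of 11 were SG-enriched against 87.1%. They lay below the median of all genes of their length in 8 of 8, 6 of 6, 8 of 9 and 10 of 11 cases. Genes of a length were not matched for level. In Total the median was 57.5 TPM for the 34 genes and 11.0 TPM for all genes above 1 TPM. The part of level in these counts was not tested. The MANE Select transcript need not be the main one in these cells. For SPCS2 and SPCS1, both SG-depleted, it is 2691 and 3786 nt long, but in the untreated rRNA-depleted library the SPCS2 transcript with the highest value was of 839 nt (10.9, beside 4.56 for MANE Select) and that of SPCS1 of 1082 nt (18.1, beside 5.88).

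**Figure D2:**
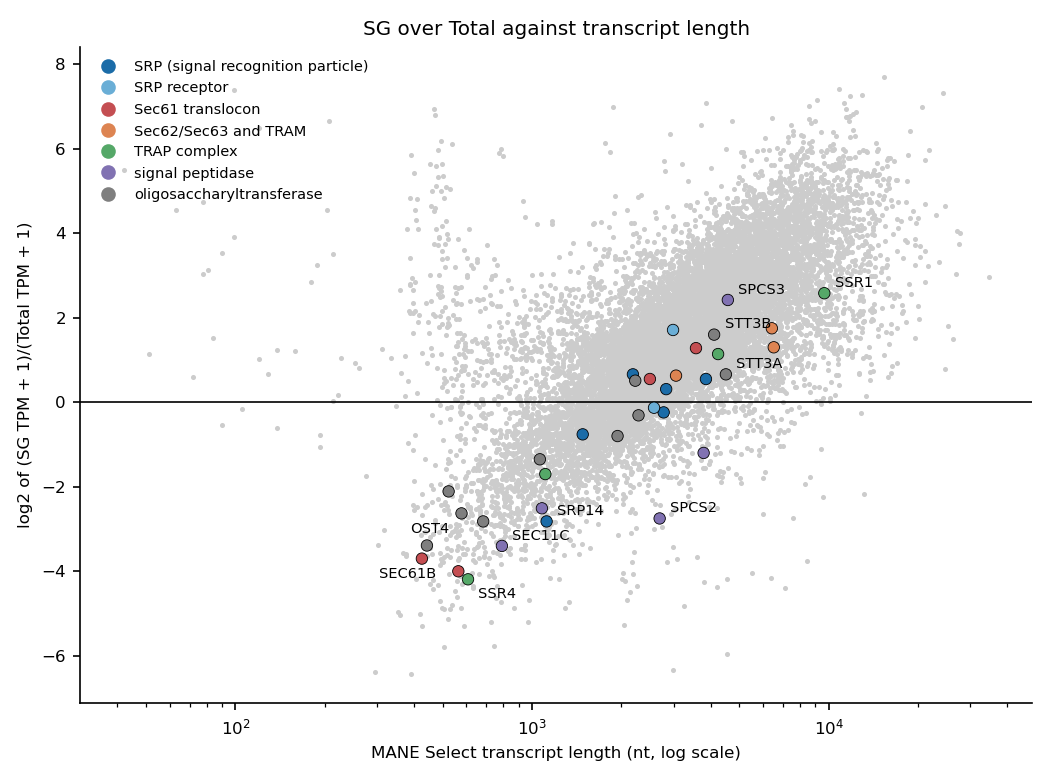
log2 of (SG TPM + 1)/(Total TPM + 1) against MANE Select transcript length (log scale) for 13548 genes (grey) and for the 34 genes, coloured by complex. The 8 of the 34 under 1000 nt lie between -4.19 and -2.11.

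A list of 75 further genes of ER entry and N-glycosylation was set beside them. Of these, 31 were SG-enriched and 9 SG-depleted, with a median log2 fold of 0.52, beside 62.9% and 9.45% of all genes and their median of 1.51. Among those above 10 TPM, the highest folds were those of the folding sensor UGGT1, with 6.06 TPM in the Total library and 232 TPM in SG, and the lectin chaperone CANX, with 4.90 and 142 TPM. The lowest were those of EMC4, a subunit of the ER membrane complex, with 154 and 20.1 TPM, and DPM3, a subunit of dolichol-phosphate mannose synthase, with 224 and 41 TPM. Among the 9 ER lumenal chaperones, 4 were SG-enriched and 0 were SG-depleted, a share of SG-enriched genes below that of all genes. Groups of this list differed. In the multipass translocon 6 of 9 were SG-enriched, and among glycan trimming enzymes and lectin chaperones 5 of 8, near the share of all genes. In the ER membrane complex 2 of 10 were SG-enriched.

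To ask whether the levels depend on G3BP1 or G3BP2, each knockdown was compared with siCtrl by the same fold rule. After siG3BP1, none of the 34 genes was called, against 1.12% of 12280 genes called higher and 1.98% called lower. Their log2 folds ran from -0.30 to 0.50 around a median of 0.01, with -0.08 for all genes. SSR4 had 181 TPM in siCtrl and 147 TPM in siG3BP1, RPN1 149 and 127 TPM, and TRAM1 13.9 and 11.7 TPM. At the upper end stood SEC63 with 9.26 and 11.7 TPM, TMEM258 with 126 and 154 TPM, and SEC11A with 130 and 152 TPM. Of the paralogs, SEC61A1 had 142 and 140 TPM, SEC61A2 20.7 and 18.0 TPM, STT3A 35.9 and 32.3 TPM, STT3B 17.3 and 18.3 TPM, and SEC11C 43.8 and 39.7 TPM. SEC62, at 6.05 and 8.97 TPM, had the highest log2 fold at 0.50 but was below 10 TPM in both libraries.

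After siG3BP2, only SEC11A was called. It was at 130 TPM in siCtrl, 152 TPM in siG3BP1 and 35.4 TPM in siG3BP2, a log2 fold of -1.84 in the latter against siCtrl. SEC11A cleaves signal peptides as the catalytic subunit of signal peptidase and lies on GRCh38 chromosome 15, 84669538 to 84716460, minus strand. Its paralog SEC11C had 43.8 TPM in siCtrl and 49.8 TPM in siG3BP2, so the other catalytic gene was not lower. The gene is overlapped on the opposite strand by an annotated gene with no symbol, and reads of such a pair cannot be told apart without strand. Of 12229 genes, 1.23% were called higher and 2.89% lower, and with 1 library each the SEC11A difference has no replicate check. The published methods name 1 siRNA per target. Loss of G3BP2 and other effects of that siRNA therefore cannot be told apart.

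The other 33 genes lay between -0.38 and 0.42 after siG3BP2. SRP14 had 737 TPM in siCtrl and 566 TPM in siG3BP2, and RPN1 had 149 and 124 TPM. SPCS3 had 7.60 and 10.5 TPM, SSR2 had 1003 and 1260 TPM, and SEC61G had 177 and 221 TPM. SEC61A1 had 142 and 122 TPM, SEC61A2 20.7 and 18.4 TPM, STT3A 35.9 and 31.0 TPM, and STT3B 17.3 and 16.6 TPM. None of these passed the fold rule. The 2 knockdowns share the siCtrl library, so the folds of a gene in both are not independent. Of the 75 further genes, 72 and 74 were above the minimum and none was called in either knockdown. Among those above 10 TPM, the lowest after siG3BP1 were EMC10, with 96.7 TPM in siCtrl and 48 TPM, and DPM2 at a log2 fold of -0.53, and the highest were PRKCSH at 0.47 and NOMO3 at 0.37. After siG3BP2, again among those above 10 TPM, NOMO1 at -0.94 and DPAGT1 at -0.64 were lowest, and NOMO3 at 0.61 and DHDDS at 0.28 highest. NOMO1 and NOMO3 are near-identical copies whose reads can be split between them.

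**Figure D3:**
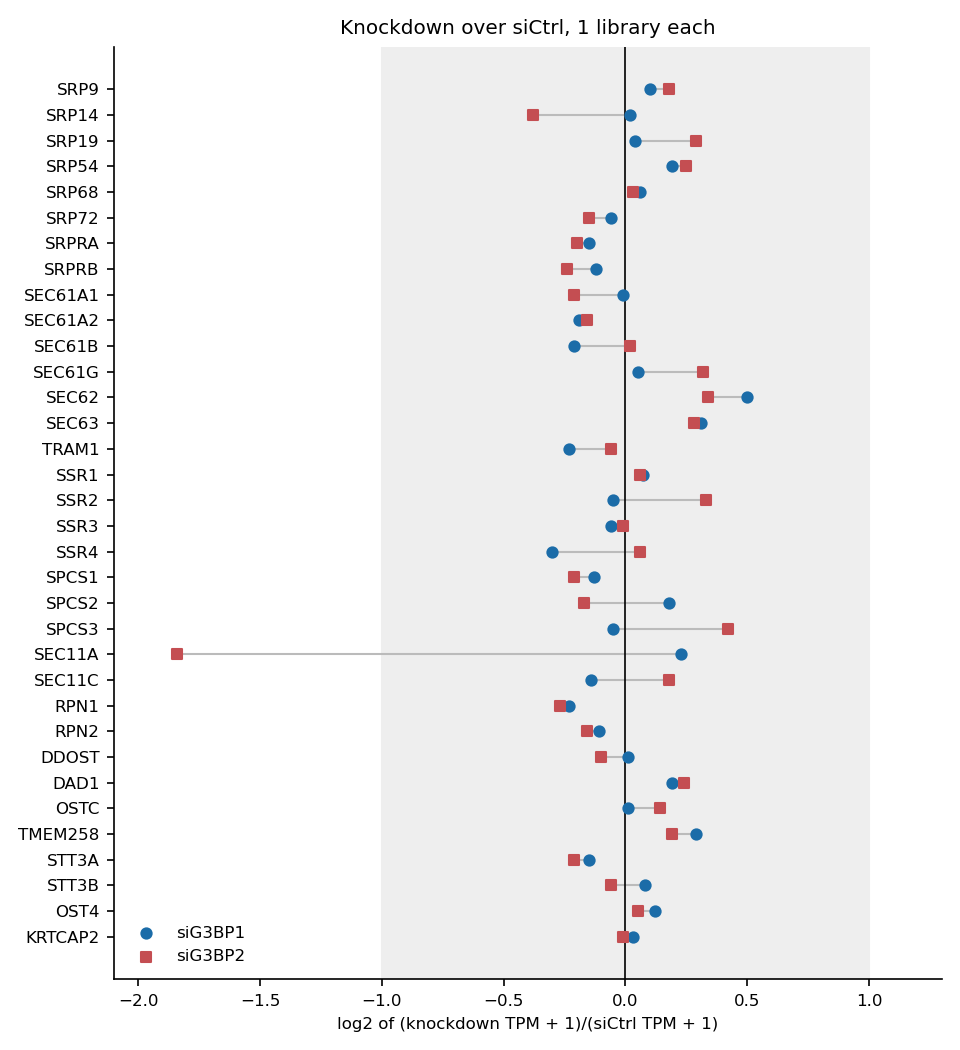
log2 of (knockdown TPM + 1)/(siCtrl TPM + 1) for each of the 34 genes after siG3BP1 (circles) and siG3BP2 (squares), 1 library each. The shaded band marks folds between 0.5 and 2, and only SEC11A after siG3BP2, at -1.84, lies outside it.

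The Total library was also compared with siCtrl. In that comparison lysate clearing, siRNA transfection, AS and any difference in library preparation cannot be told apart. None of the 34 genes was called, against 1.28% of 12173 genes called higher and 19.6% called lower in Total. Their median log2 fold was 0.15 against -0.41 for all genes, and 29 of 34 lay above the all-gene median. The same Total library is the denominator of the SG fold, so this comparison and that of SG with Total are not independent. SEC61A1 was lowest, with 142 TPM in siCtrl and 89.9 TPM in Total, followed by SRPRA with 78.9 and 52.2 TPM and SEC61A2 with 20.7 and 13.7 TPM. SEC62 was highest, with 6.05 and 10.1 TPM, followed by SEC63 with 9.26 and 14.1 TPM and SEC61G with 177 and 258 TPM. With the all-gene median set to 1, SEC62 passed the fold rule, and 3.63% of all genes were called higher and 10.7% lower. STT3A had 35.9 and 28.6 TPM, STT3B 17.3 and 15.5 TPM, SEC11A 130 and 171 TPM, and SEC11C 43.8 and 49.3 TPM. Of the 75 further genes, 1 was called higher and 4 lower, with UGGT1 at -1.41 and NOMO3 at -1.23 lowest and TMCO1 at 0.49 and EMC4 at 0.46 highest among those above 10 TPM.

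To ask whether AS itself changed the levels, the rRNA-depleted libraries were compared, with the deposited values of all transcripts of a gene summed and the fold taken on the sum + 1. None of the 34 genes was called, against 3.52% of 12614 protein-coding genes higher and 0.563% lower. Their median log2 fold was 0.26, beside 0.27 for all genes, and 33 of the 34 were above 0. Setting the all-gene median ratio to 1 shifts each value by -0.28, after which the 34 genes ran from -0.31 to 0.35. The lowest sums relative to untreated were those of KRTCAP2, at 194 untreated and 191 with AS, SSR4 at 104 and 108, and DDOST at 57.1 and 59.2. The highest were SEC61A2 at 38.1 and 59.2, SPCS3 at 12.8 and 18.6, and SRPRB at 17.7 and 25.4.

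Counting error was bounded for 1 transcript of each gene and not for the sums. For the transcript with the highest value of each gene, the reads behind the value could be recovered and numbered 43 to 2035 per library. The AS to untreated ratio of these transcripts ran from 0.997 for KRTCAP2 to 1.62 for SEC63, with a median of 1.23, beside 1.21 over 10435 genes. The highest transcript is not annotated as protein-coding for SRP14, SEC61A2, SEC62, SEC63, TRAM1, TMEM258 and STT3B. That of SEC63 retains an intron and held 43 and 59 reads, whereas its MANE Select transcript held 667 and 684 reads at values of 7.80 and 9.43. That of SEC61A2 is annotated as a target of nonsense-mediated decay and held 50 and 68 reads, and its MANE Select transcript held 154 and 179 reads at values of 4.64 and 6.36. For 31 of 34 genes, the exact 95% interval of the ratio contained 1.21. It lay above for STT3A, at 1.39 (1.22 to 1.59), and below for DDOST, at 1.05 (0.932 to 1.18), and OST4, at 1.04 (0.953 to 1.14). Some intervals reached past a ratio of 2, as for SEC63 at 1.07 to 2.45. The intervals cover counting error only, and there was 1 library per condition. The share of intervals over all genes that exclude 1.21 was not computed. Some 95% intervals miss from counting error alone, so these exceptions have no background to be read against. Of the paralogs, SEC61A1 was at 1.18 (1.06 to 1.32) and SEC61A2 at 1.60 (1.10 to 2.36). STT3B was at 1.08 (0.883 to 1.32), beside the value of STT3A. SEC11A was at 1.2 (1.03 to 1.39) and SEC11C at 1.34 (0.873 to 2.07). The intervals of each pair overlapped, but overlap does not show equal ratios, and the difference within a pair was not tested. SRP RNA itself is not among the poly-A values, which were deposited for protein-coding genes only. In the rRNA-depleted libraries, RN7SL1 was at 17821 untreated and 21321 with AS, and RN7SL2 at 5598 and 7110, ratios of 1.2 and 1.27.

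**Figure D4:**
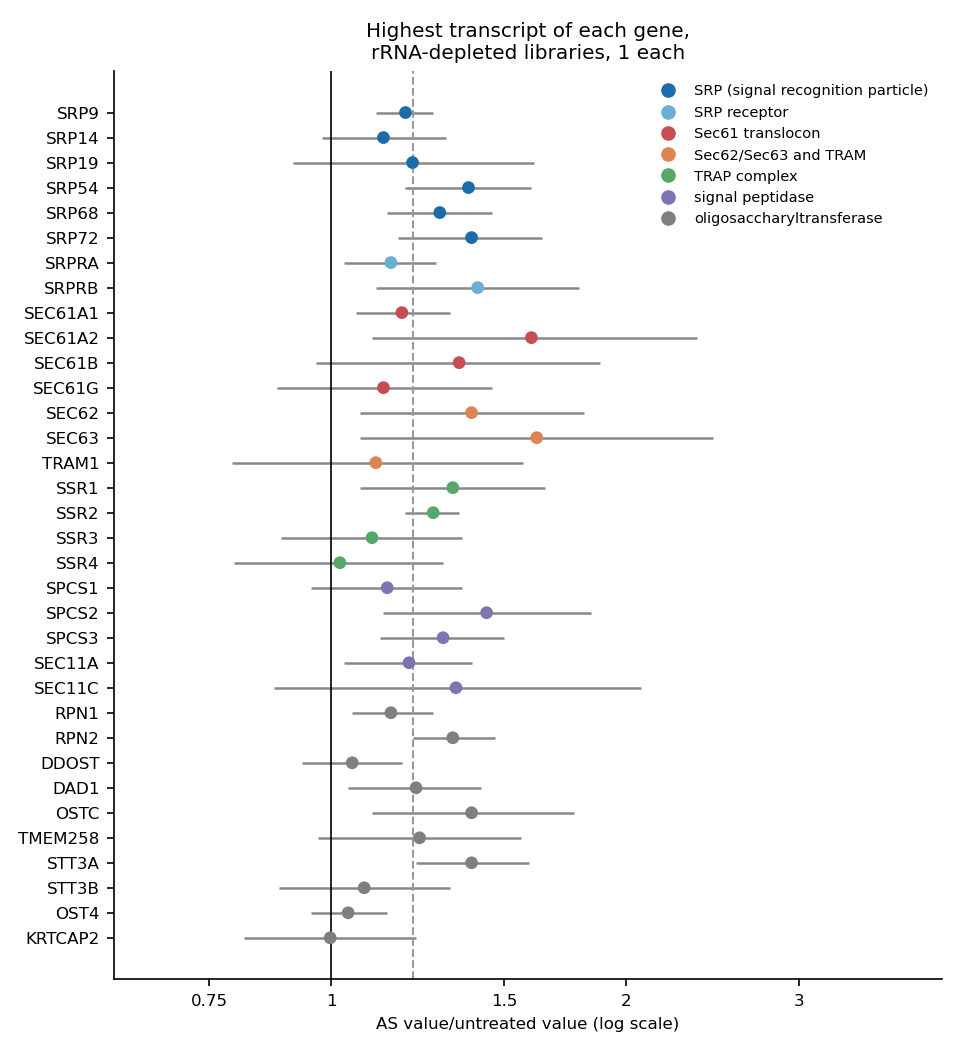
Ratio of the AS to the untreated value (log scale) for the highest transcript of each of the 34 genes, coding or not, 1 rRNA-depleted library each, with exact 95% intervals from the recovered reads. The dashed line marks the ratio of 1.21 over all genes, which 31 of the 34 intervals contain.

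Among the 75 further genes, 2 were called higher with AS and 1 lower, beside 3.52% and 0.563% of all protein-coding genes. HYOU1, an ER chaperone, had 19.5 untreated and 47.6 with AS, and BAG6, which hands tail-anchored proteins to their targeting factor, had 4.0 and 20.8. NOMO3, a subunit of the multipass translocon whose reads can be shared with its near-identical NOMO copies, had a log2 fold of -1.12.

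Many genes of ER entry are known targets of the unfolded protein response, in which the factors ATF6 and XBP1 bind short promoter elements. The sequence windows from 250 bases before to 50 bases after the transcription start were taken from RefSeq (GRCh38.p14), where 29 of the 34 genes were matched. SRPRA, TRAM1, SPCS1, RPN1 and STT3B were not. The ER stress response element (CCAAT, 9 bases of any kind, CCACG) and its variant (ATTGG, 1 base of any kind, CCACG), searched on both strands, were found in 0 of the 29 genes, and in 0.133% and 0.0947% of 15841 protein-coding genes. The XBP1 core TGACGTGG, also searched on both strands, begins with the letters of the cyclic AMP response element and was found in 4 of the 29 genes, or 13.8%, and in 1.05% of protein-coding genes. The matches are shown with 8 flanking bases on each side, since they are the 4 windows in which members of the list share letters, with the core in capitals and each read on the strand opposite to the gene:
SSR3: ttccttgcTGACGTGGctgttatc
SEC62: gttccctcTGACGTGGagcgagga
SRP19: ctagtctcTGACGTGGcatgaaga
SSR4: ggcagcacTGACGTGGcccctccc
The cores lie at chromosome 3, 156554159 to 156554166 for SSR3, chromosome 3, 169966790 to 169966797 for SEC62, chromosome 5, 112861175 to 112861182 for SRP19 and chromosome X, 153794539 to 153794546 for SSR4. The log2 folds with AS of these 4 genes, on the summed values, were 0.18, 0.26, 0.19 and 0.05, beside the all-gene median of 0.27. A match is a description of letters and not of binding.

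G3BP1 and G3BP2 eCLIP values were deposited per gene on a log10 scale under a header that calls them peaks, and each corresponds to log10 of a whole number plus 1. The numbers summed to 4268911 to 26179736 per library, and library 2 of each group was the smaller. The median value of the 34 genes was 1.55 to 2.31 in the 8 libraries, and that of all genes 1.70 to 2.47. The value went with the genomic span of the gene, introns included, at Spearman's rho of 0.689 to 0.824 over the 34 genes and 0.831 to 0.857 over all genes. Per kilobase of span, the median number in the larger G3BP1 library of untreated cells was 7.21 for the 34 genes, 11.8 for genes above 10 TPM in siCtrl and 6.13 for genes listed at 0 TPM in siCtrl. In the smaller library of that group they were 2.79, 3.58 and 1.5. The 34 genes thus lay between the genes above 10 TPM and those listed at 0 TPM in both G3BP1 libraries of untreated cells. In the larger G3BP2 library of untreated cells they were at 6.84, below the 6.93 of genes listed at 0 TPM. In the smaller one they were at 3.72 against 2.67, and in the larger G3BP2 library with AS at 7.03 against 6.87. The size-matched input libraries were not analysed here.

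Of the 34 genes, 25 were above 0 in all 8 libraries, beside 82.6% of all genes. SRP54, the GTPase subunit that binds signal sequences, had among the highest values, with 3.21 and 2.68 in the G3BP1 and 3.21 and 2.88 in the G3BP2 libraries of untreated cells. With AS it had 3.15 and 2.44, and 3.21 and 2.76. SEC61A2, of 40.3 kb, had 3.12 and 2.67 for G3BP1 and 3.18 and 2.81 for G3BP2 in untreated cells, above its more abundant paralog SEC61A1, of 20.1 kb, with 2.18 and 1.83, and 1.94 and 1.91. STT3B, of 105 kb, had 2.87 and 2.72 for G3BP1 in untreated cells and STT3A, of 33.5 kb, had 2.54 and 2.01. SEC11A, of 46.9 kb, had 3.13 and 2.23, and SEC11C, of 19.0 kb, had 1.74 and 1.89. Of the 4 mRNAs most depleted from SG cores, SSR4 had 0.48 and 1.32, SEC61B 0.48 and 1.11, SEC61G 1.76 and 1.81, and SEC11C 1.74 and 1.89 for G3BP1 in untreated cells, where the medians of the 34 genes were 2.21 and 1.83. SSR4 and SEC61B thus lay below the median in both libraries, SEC61G lay nearer to it, and SEC11C lay above it in the smaller library. These values are not corrected for span, which was 4.98 kb for SSR4, 8.55 kb for SEC61B and 7.72 kb for SEC61G. Per kilobase, the means of both libraries were 2.21 for SSR4, 0.819 for SEC61B, 7.83 for SEC61G and 3.45 for SEC11C. The medians of the 34 genes were 7.21 in the larger and 2.79 in the smaller library, so SEC61G was not low per kilobase.

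To ask whether AS changed the values, AS and Ctrl libraries of each protein were compared with limma, after scaling all libraries to the same total. None of the 33 tested genes of the list had an adjusted p under 0.05 for either protein. The same held for all genes, with 0% of 18888 genes called for G3BP1 and 0% of 19035 for G3BP2, while 483 and 635 genes had an unadjusted p under 0.05. The median log10 change of the list was 0.02 for G3BP1 and 0.01 for G3BP2.

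SRP14 had the smallest p of the list in both comparisons. Its values in untreated cells were 1.73 and 1.40 for G3BP1 and 1.83 and 1.49 for G3BP2, and in AS-treated cells they were 0 in all 4 libraries. The log10 change on the scaled values was -1.66 ± 0.311 (SE, n = 2 per group, limma adjusted p = 0.996) for G3BP1 and -1.64 ± 0.218 (SE, n = 2 per group, limma adjusted p = 0.980) for G3BP2. SRP14 was therefore not called by either fit, although no AS library overlapped a Ctrl library. Of all 19942 genes, 5 were above 0 in all 4 Ctrl libraries and at 0 in all 4 AS libraries. The gene spans 3.49 kb on GRCh38 chromosome 15, 40035690 to 40039181, minus strand, and its MANE Select transcript held 431 reads untreated and 411 reads with AS in the rRNA-depleted libraries. SRP68, which binds the S domain of the SRP RNA, also had every AS library below every Ctrl library on the scaled values. Its scaled values were 2.59 and 2.59 for G3BP1 and 2.53 and 2.82 for G3BP2 in untreated cells, and 2.4 and 2.28, and 2.39 and 2.42, with AS. As deposited, its AS and Ctrl values overlapped. These 2 of 34 genes compare with 2.91% of 19259 genes, and 0 of 34 had every AS library above every Ctrl library, beside 2.62% of genes.

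Several other genes differed between the 2 libraries of a group. KRTCAP2, an OST subunit, was at 0 in the 4 Ctrl libraries and had 2.14 and 0 for G3BP1 and 1.93 and 0 for G3BP2 with AS. It was above 0 in too few libraries of each protein to be tested. DAD1 was at 0 in both Ctrl libraries numbered 1 and at 1.79 and 1.82 in those numbered 2, and OSTC had 0.48 and 0 against 1.84 and 1.91. SEC61B, SEC61G, SSR4 and KRTCAP2 were at 0 in both AS libraries numbered 2 and above 0 in both numbered 1, as were 483 of all genes. Same-numbered G3BP1 and G3BP2 libraries of a treatment deviated together, with a correlation over 16476 genes of 0.544 in Ctrl and 0.477 in AS, so values for the 2 proteins are not independent. The part of this in the differences was not tested.

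The 2 proteins were then compared with each other over all 8 libraries, with treatment as a covariate. None of the 34 genes was called, with 0% of 19259 genes called and 336 at an unadjusted p under 0.05, and the median log10 difference of the list, G3BP2 minus G3BP1, was -0.01. The smallest p of the list was that of SRP9, with a difference of -0.18 ± 0.0741 (SE, 4 libraries per protein, limma adjusted p = 0.999). The interaction of AS and protein gave 0% of 19259 genes called, 144 at an unadjusted p under 0.05 and none of the 34, with a median of 0.04.

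**Figure D5:**
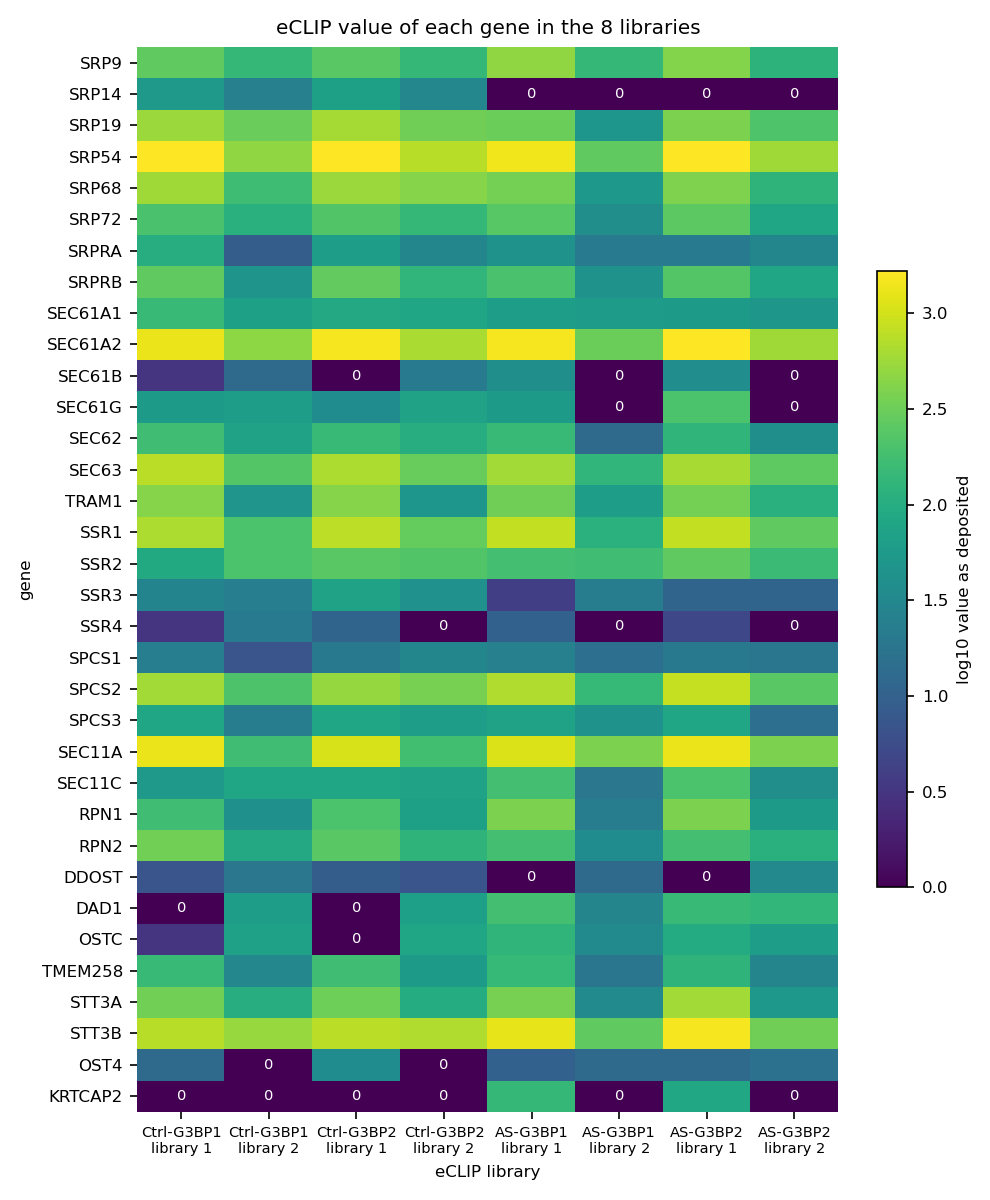
Deposited log10 eCLIP value of each of the 34 genes (rows) in the 8 libraries (columns), with values of 0 written in. SRP14 is at 0 in all 4 AS libraries, and KRTCAP2 is above 0 only in the AS libraries numbered 1.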

How the data were processed

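SH-SY5Y cells were profiled by eCLIP (8 libraries), poly-A RNA-seq (5) and rRNA-depleted RNA-seq (2). Poly-A reads were aligned by the authors with HISAT2 2.1.0, and TPM from StringTie, which keep no depth, were deposited. For the rRNA-depleted libraries the deposited values per transcript, treated as a signal because their columns sum to 1039719 and 1216810, more than TPM can, were whole multiples of the worth of 1 read divided by transcript length (tolerance 0.02 read), and a read counts for every transcript it overlaps. For eCLIP, the authors used fastp, STAR, CLIPper and SMInput, and deposited log10 values. Which steps the number includes is not given in the sources used here.

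Genes were matched by Ensembl ID to GENCODE release 44 on GRCh38, and 88.5% of transcripts by versioned ID. Folds used a pseudocount of 1 and a minimum of 1. eCLIP numbers were scaled to the mean total and log10(number + 1) was fitted with limma 3.58.1 (R 4.3.3, with trend) for genes with a value above 0 in 2 or more libraries, and p-values were adjusted after Benjamini-Hochberg with a threshold of 0.05. Both rules were tested on simulated data, in which the limma fit missed many of the changes put in. The absence of eCLIP calls is therefore not evidence of no change. Python 3.11.15, pandas 2.3.3 and scipy 1.17.1 were used.

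Each comparison names the 3 highest and 3 lowest members above 10 in the file's unit, every member called and the paralog pairs, and of the 75 further genes the 2 highest and 2 lowest where they matter. Others were named after their values were seen. The members and lists were chosen with earlier results of these data known. Alternatives covered pseudocount, fold threshold, filters, scaling, transcript choice, replicate block and left-out libraries.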

Additional observations from a re-analysis of the deposited data

How the results depend on the processing

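Each RNA-seq condition had 1 library and no test. For SG against Total, a fold threshold of 4 left 2 SG-enriched members. Scaling to a median ratio of 1 left 2 and took the members' median log2 fold to -1.67, with SEC61A1 at -0.19, SEC62 at -0.09 and SSR3 at -0.26, now below 0. A fold threshold of 4 left 0 members lower after siG3BP2. For Total against siCtrl, a threshold of 1.5 gave 1 member higher and 1 lower, and scaling to a median ratio of 1 gave 1 higher. For AS against untreated, a threshold of 1.5 gave 1 member higher. No member was called in any eCLIP fit. Over all genes, the G3BP2 fit gave 2 calls on the values as deposited, on which the all-gene median was -0.075. Leaving out 1 library gave 0 to 2 calls for G3BP1, where 2 came without Ctrl library 2, and 0 to 24 for the interaction, where 24 came without AS-G3BP1 library 1. Fitting the replicate number as a block left 0 genes called in all 4 fits, and on the values as deposited it left 0 of the 2 G3BP2 calls. The other 211 recomputed counts and medians stayed within 1.5 times, or for eCLIP medians within the median SD of 0.165. Deviations of libraries from the same group correlated at 0.110 to 0.544 between groups, but the labels do not say that a number marks a shared batch, and 2 numbers are too few to decide it.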

Other observations

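A few further values belong to no comparison above. One annotated transcript of SEC61A2 passed the fold rule in the rRNA-depleted libraries, with 4 reads untreated and 13 reads with AS, among 276 transcripts of the 34 genes above 1 in either library, of which 1 was called higher and 0 lower, beside 1.51% and 0.470% of all transcripts. Across the 34 genes, the level in siCtrl went with the level in Total at a Spearman's rho of 0.968 and with the level in SG at 0.379, given as descriptions over genes of shared libraries. G3BP1 and G3BP2 mRNAs were themselves at 12.8 and 28.1 TPM in Total and 59.3 and 143 TPM in SG. RPN1, the gene for ribophorin I, spans on GRCh38 chromosome 3, 128619969 to 128681075, a sequence annotated as an SRP RNA copy, and the part of that copy in its eCLIP value was not tested.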
